A study of Mus musculus with 4 samples.

Results

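Immediate early AP-1 and Egr genes were followed across the bone marrow cells of myeloma-bearing mice treated with purinostat mesylate (PM), an inhibitor of class I and class IIb histone deacetylases. The 10 genes, of 32285 in the deposited tables, were taken by symbol: Fos, Fosb, Jun, Junb, Jund, Egr1, Ier2, Atf3, Dusp1 and Nr4a1. They were chosen by name and not by their values, with earlier results of these data known. In the 5TMM model, 5TGM1 myeloma cells carrying luciferase were injected into the vein of 6-week-old C57BL/KawRij mice and grew for 3 weeks, so that every mouse in both groups carried the tumor. Bone marrow was taken 24 h after treatment from 2 vehicle-treated mice and from 2 that had received PM at 10 mg/kg. Red blood cells were lysed, and each mouse gave 1 droplet-based single-cell library, so the mouse was the replicate. The same 4 mice enter every comparison. The question was whether these genes changed in particular lineages of the PM mice or alike in all cells of a library.

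Immediate early genes are transcribed within minutes of a signal, without the need for new protein, and their messages are short-lived. Mitogen-activated kinases and calcium or cyclic AMP signals reach them through transcription factors such as SRF with its ELK partners and CREB. The products of Fos, Fosb, Jun, Junb and Jund pair through leucine zippers to form AP-1, which binds its target sites as dimers. Egr1 encodes a zinc finger factor, Nr4a1 an orphan nuclear receptor, and Atf3 a stress-induced factor of the ATF/CREB family that also pairs with Jun proteins. Dusp1 encodes a phosphatase that switches off the kinases that induce it, and Ier2 a small nuclear protein induced together with the others. In dissociated tissue these genes also respond to the handling of the cells, which single-cell data cannot tell apart from their state in the animal.

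The 250 bases before the transcription start are shown for Atf3, Nr4a1 and Dusp1, which had the largest differences between the mice described next, and for Fos, which passed the test in opposite directions in a pair of lineages. They are RefSeq sequences on GRCm38.p6, in the direction of transcription. Capitals mark TGACG or its complement CGTCA, the core of the cyclic AMP response element (CRE) that CREB and ATF proteins bind.
Atf3, chr1:191183334-191183583, minus strand: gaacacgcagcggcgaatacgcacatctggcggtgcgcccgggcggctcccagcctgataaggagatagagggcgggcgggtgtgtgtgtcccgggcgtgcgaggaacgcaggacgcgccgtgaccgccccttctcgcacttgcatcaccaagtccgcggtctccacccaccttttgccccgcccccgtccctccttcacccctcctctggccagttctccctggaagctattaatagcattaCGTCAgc
Nr4a1, chr15:101266596-101266845, plus strand: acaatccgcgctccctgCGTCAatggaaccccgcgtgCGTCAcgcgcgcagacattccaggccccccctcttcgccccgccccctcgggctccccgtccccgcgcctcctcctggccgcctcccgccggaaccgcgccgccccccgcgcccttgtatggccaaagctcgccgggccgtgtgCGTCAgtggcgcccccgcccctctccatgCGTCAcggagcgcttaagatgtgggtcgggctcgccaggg
Dusp1, chr17:26508473-26508722, minus strand: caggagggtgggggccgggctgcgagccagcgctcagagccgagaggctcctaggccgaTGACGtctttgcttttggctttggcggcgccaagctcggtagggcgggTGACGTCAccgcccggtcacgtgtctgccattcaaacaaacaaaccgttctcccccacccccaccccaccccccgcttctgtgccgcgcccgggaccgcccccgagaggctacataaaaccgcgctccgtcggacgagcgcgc
Fos, chr12:85473640-85473889, plus strand: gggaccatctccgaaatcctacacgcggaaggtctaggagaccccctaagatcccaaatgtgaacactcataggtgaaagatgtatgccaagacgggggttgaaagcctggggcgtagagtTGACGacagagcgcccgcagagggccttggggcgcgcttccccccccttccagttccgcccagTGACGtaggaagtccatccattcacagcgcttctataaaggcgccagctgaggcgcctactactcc
RefSeq promoter windows were found for 8 of the 10 genes, all but Egr1 and Ier2. The CRE core was searched on both strands. It occurred in the 250 bases of 6 of these 8 genes (Atf3, Fosb, Junb, Fos, Nr4a1 and Dusp1) and in 17.8% of 32851 windows of the same length. Nr4a1 held 4 copies and Fos held 2. The Dusp1 window held the full palindrome TGACGTCA, which starts 143 bases before the transcription start, contains the core on both strands and occurred in 1.55% of windows. The Egr site GCGNGGGCG was found in Fosb and Nr4a1 and in 4.7% of windows. The AP-1 site TGANTCA (6.75% of windows) and the CArG box that SRF binds (1.47%) were in none of the 8 windows. A match describes the letters of these windows only.

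After filtering, the vehicle mice had 9261 and 7826 cells and the PM mice 13387 and 9269, with 69190194 to 108776232 UMIs (unique molecular identifiers, the counted molecules) per mouse. Median depth ranged from 4717 to 6067 UMIs per cell. Libraries shared 18 to 39 cell barcodes per pair, at most 0.421% of the smaller library. Cells were clustered without the members and the other stress genes, named from marker genes, and 15 to 197 cells per mouse stayed unnamed. Every mouse held 10 cells or more of 13 cell types, and 50 or more of 11 of these. For each, levels are given as CPM, the UMIs of a gene scaled to the same UMI total for every type and mouse. Within the summed RNA of a cell type, fewer cells of a subtype and less RNA per cell cannot be told apart. The library labelled PM 1 stood apart from the other 3 in the members, so results are given with and without it where a call rests on it. Its cells had a median mitochondrial share of 1.69%, against 1.02% to 1.26% in the others. Within neutrophils the share was 0.734% in PM 1 and 0.662% to 0.771% in the others. In stem and progenitor cells it was 5.03% in PM 1 and 3.59% to 4.49% in the others. In erythroid cells it was 3.28% against 2.05% to 2.28%, and in monocytes, with the progenitors of each, 3.48% against 2.96% to 3.34%. PM 1 was also highest in B cells (6.11%) and in eosinophil and basophil progenitors (3.12%). It was not highest in T, NK, megakaryocyte/platelet, endothelial, plasmacytoid dendritic and Cxcl12-abundant reticular cells or macrophages. Plasma cells as a class, which joins clusters described below, had 4.91% in PM 1 and 2.69% to 3.04% in the others. In the clonal plasma cluster it was 6.57% in PM 1 and 6.65% to 7.0% in the others. In the other plasma cluster it was 2.77% in PM 1 and 2.41% to 2.6% in the others. Neutrophils made up 54.1% of the cells of PM 1 and 55.5% to 69.6% of the others.

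Levels differed widely between cell types. Eosinophil and basophil progenitors (named eosinophil/basophil prog), cells marked by the granule genes Prss34, Mcpt8, Prg2 and Epx, had the highest mean level of 8 of the 10 genes, all but Atf3 and Nr4a1. Their Fosb level was 1498 to 1944 CPM over the 4 mice, and plasma cells came next at 133 to 509 CPM. For Egr1 they had 1448 to 2350 CPM, above megakaryocyte/platelet cells at 176 to 647 CPM. The ranges of the 4 mice did not overlap with the next cell type for Fosb, Jun, Egr1 and Ier2, while for Fos, Junb, Jund and Dusp1 they did. The class that joins monocytes with their progenitors (mono&prog) had the highest mean of Atf3, at 70.2 CPM, and of Nr4a1, at 76.8 CPM, with ranges that overlapped those of the next type. Erythroid cells and their progenitors (erythroid&prog) were lowest for 9 genes, all but Atf3, which was listed at 0 in all 4 mice only in the few endothelial cells.

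Fos may serve as an example of the order. Its mean over the 4 mice ran from 1333 CPM in eosinophil/basophil prog to 647 in macrophages, 639.5 in mono&prog, 413 in plasma cells, 360.5 in plasmacytoid dendritic cells (pDC), 301 in megakaryocyte/platelet cells, 242 in endothelial cells and 199 in neutrophils. It went on to 170.2 CPM in Cxcl12-abundant reticular (CAR) cells, 169 in hematopoietic stem and progenitor cells (HSPC), 86.9 in T cells, 77.1 in NK cells, 44.2 in B cells and 19.4 in erythroid&prog. The ranges of every pair of neighbours in this order overlapped. In macrophages the mouse vehicle 1 was apart from the others, with 1429 CPM of Fos against 437.7, 260.5 and 459.2 CPM in vehicle 2, PM 1 and PM 2.

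To separate a change shared by all cells of a library from a change of one lineage, log2 CPM was averaged over the 11 cell types with equal weight, which keeps the shares of the cell types out of the value. PM 1 was the lowest of the 4 mice for 10 of 10 members, and 25.7% of the 10039 genes tested had their lowest value in that mouse. Relative to the mean of the vehicle mice, PM 1 was at -2.0 on the log2 scale for Atf3, -1.81 for Nr4a1 and -1.50 for Dusp1, and nearest to it for Jun, at -0.44. PM 2 did not share this shift. Its value lay between the vehicle mice for Fos, Fosb, Junb, Jund, Dusp1 and Nr4a1, above both for Jun, Egr1 and Ier2, and below both for Atf3 alone, at -0.61. The median over the members was -0.80 in PM 1 and 0.03 in PM 2, where the medians of all genes were 0.02 and 0.01.

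**Figure D1:**
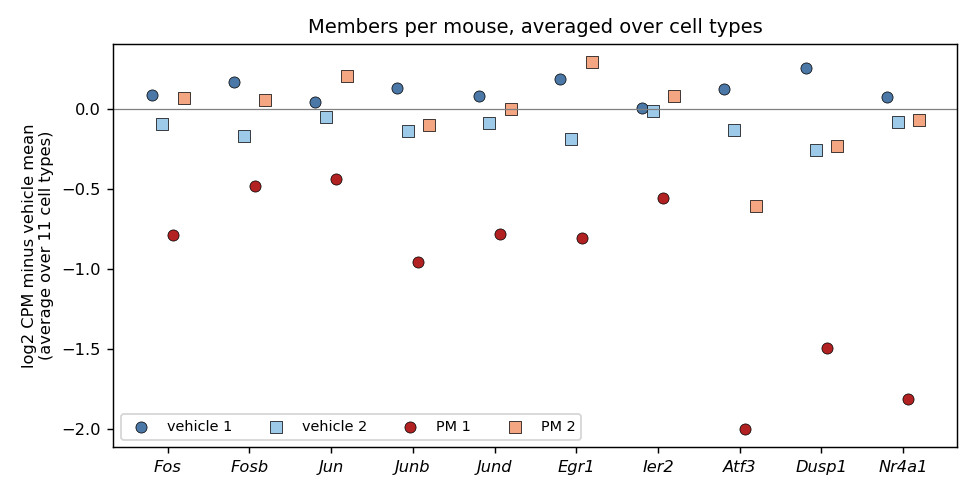
Level of each member per mouse, as log2 CPM averaged over 11 cell types and set to 0 at the mean of the vehicle mice (vertical axis), with 1 point per mouse and no error bars. PM 1 (dark red circles) lies below the other 3 mice for all 10 genes, from -0.44 for Jun to -2.0 for Atf3, while PM 2 (light red squares) lies near or within the span of the vehicle mice except for Atf3.

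The averaged change did not pass for any member. By limma, 0 of 10 members passed, against 0.578% of all genes, at an adjusted p under 0.05 with a log2 fold change beyond 0.5. The log2 fold changes ran from -1.30 for Atf3 (SE 0.54, adjusted p = 0.458 by limma) and -0.94 for Nr4a1 (SE 0.75) to -0.12 for Jun (SE 0.21), and 0 members had an unadjusted p under 0.05. All 10 were below 0, with a median of -0.38 where the median of all genes was 0.01. Without PM 1, 6 of the 10 changed sign. Without PM 2, which leaves PM 1 alone in its group, Atf3 was at -1.99, Nr4a1 at -1.81 and Junb at -0.95. Fos and Jund were at -0.78 and Ier2 at -0.55. These are not all of the largest values, since Dusp1, not listed here, was at -1.50 in PM 1 relative to the mean of the vehicle mice. In the summed RNA of all cells, as a bulk profile would give it, 0 of 10 passed by edgeR (0.0128% of genes), with a median of -0.34 and 1 member, Atf3, at an unadjusted p under 0.05. Its level there was 31.9 and 29.1 CPM in the vehicle mice, 3.22 in PM 1 and 12.5 in PM 2.

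The shift of PM 1 was seen in most cell types. Over the pairs of a member and a cell type that passed the filter on low counts, PM 1 was the lowest mouse in 88 of 105, where 25.2% of all such pairs had their lowest value in it. It was lowest for every member tested in B cells, HSPC, mono&prog, megakaryocyte/platelet and plasma cells, for 6 of 10 in neutrophils and for 4 of 10 in erythroid&prog. PM 2 was the lowest mouse in 0 of these pairs. The plasma class joins clusters described below. By CPM, PM 1 was lowest in the clonal cluster for Fosb and Junb alone, and Fos there had 17.6 CPM in PM 1 and 5.00 in PM 2. In the other plasma cluster PM 1 was lowest for every member but Atf3. Of the other lists, the remaining immediate early genes had PM 1 lowest for 20 of 26 tested, beside the 25.7% of all genes. Heat shock genes had PM 1 lowest for 3 of 13, upstream kinases and transcription factors for 10 of 26, other AP-1 and dimer partners for 2 of 9, and the 6 class I and IIb histone deacetylase genes for 1. None of these lists held a gene that passed the averaged test.

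Within single cell types, 4 of 121 tested pairs of a member and a type passed by edgeR (1.38% of all pairs of a gene and a type), 3 lower and 1 higher after PM. The 3 lower calls were in B cells, where 6.38% of all genes were called, and the higher call was in neutrophils, where 5.6% were. The log2 fold change was below 0 in 86 of the 121 pairs, with a median of -0.43. In mono&prog all 10 were below 0 with a median of -0.91, in HSPC all 10 with -0.64 and in macrophages all 10 with -1.09, and none passed. In erythroid&prog 8 of 10 were above 0. In macrophages vehicle 1 was the highest mouse for every member. Egr1 there had 673 CPM in vehicle 1, 132 in vehicle 2, 105 in PM 1 and 125 in PM 2. Jun had 788, 255, 317.5 and 269 CPM in the same order. Fits without 1 mouse keep a lone mouse in a group. Without PM 1 the log2 fold change was -1.15 for Atf3 and -1.27 for Nr4a1 in mono&prog, 0.93 for Jun in neutrophils and -2.54 for Fosb in NK cells. The NK value rested on few counts, 26 and 22 UMIs in the vehicle mice and 4 in PM 2. Without PM 2, Atf3 and Nr4a1 in mono&prog were at -3.64 and -3.83.

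**Figure D2:**
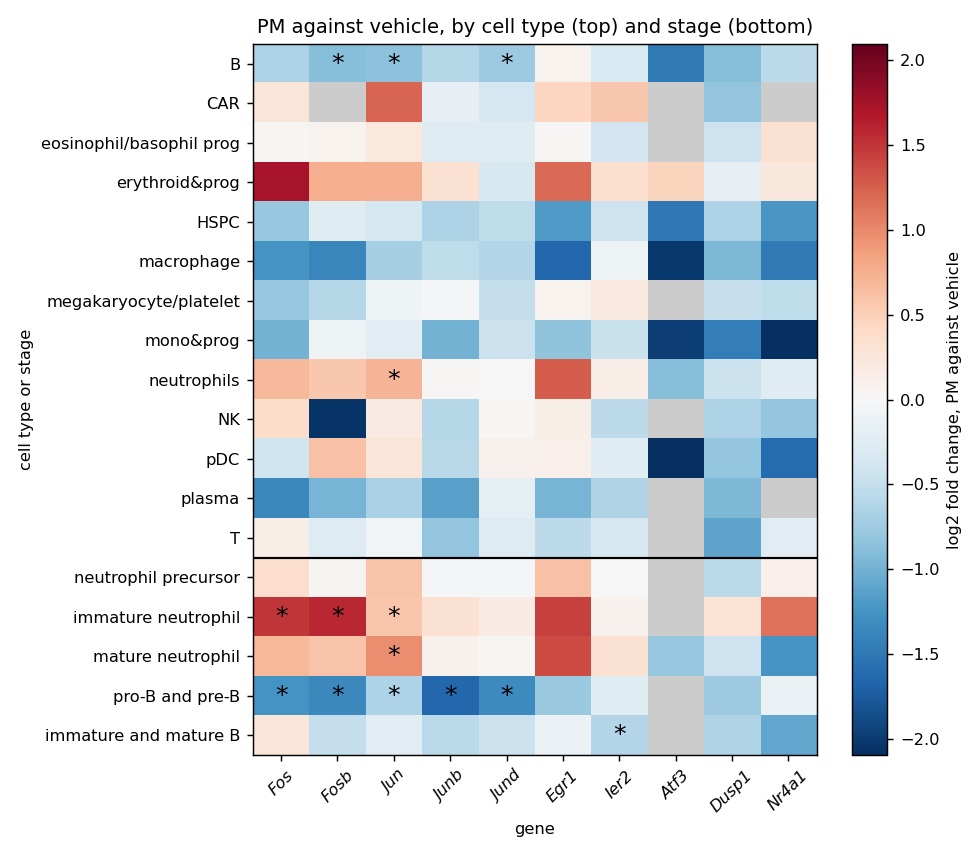
Log2 fold change of PM against vehicle by edgeR for each member (columns) in 13 cell types (rows above the line) and 5 neutrophil and B cell stages (rows below it), n = 2 mice per group. Red is higher and blue lower after PM, grey was not tested, and a star marks an adjusted p under 0.05 with a log2 fold change beyond 0.5; the stars gather in immature and mature neutrophils (higher) and in B cells, mainly the pro-B and pre-B stage (lower).

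The largest differences of mono&prog were in Atf3, Nr4a1 and Dusp1. Atf3 had 113 and 106 CPM in the vehicle mice, 8.74 in PM 1 and 52.6 in PM 2. Nr4a1 had 117 and 128 CPM against 8.56 and 54.0, and Dusp1 had 717 and 521 against 111 and 366. For all 3 both PM mice lay below both vehicle mice, with PM 1 far below PM 2. The share of all genes whose CPM did not overlap between the groups was not counted, here or in the classes and stages below. The log2 fold changes were -1.96 for Atf3 (SE 1.02), -2.09 for Nr4a1 (SE 1.04) and -1.45 for Dusp1 (SE 0.68), with adjusted p by edgeR of 0.518, 0.503 and 0.457. Without PM 1, Atf3 at -1.15 and Nr4a1 at -1.27 passed in mono&prog, both with an adjusted p of 0.0309 by edgeR, a fit that takes the lone PM mouse to vary as the vehicle mice do.

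Fewer mono&prog cells of the PM mice held a UMI of Atf3 or Nr4a1. After each mono&prog cell was thinned to 1000 UMIs, Atf3 was seen in 16.2% and 13.8% of cells of the vehicle mice, 1.64% in PM 1 and 7.93% in PM 2, and without thinning in 59.5%, 55.7%, 10.9% and 34.6%. Nr4a1 was seen in 17.7% and 19.2% of thinned cells against 1.7% and 8.66%, and without thinning in 56.3%, 58.8%, 9.72% and 34.2%. PM 1 was below PM 2, and both were below the vehicle mice, on each of these measures. In erythroid&prog, which had low levels of both genes, thinned cells had Atf3 in 0%, 0%, 0% and 0.623%, and Nr4a1 in 0.775%, 0%, 0% and 0.935%. The mono&prog shares of both genes lay above those of erythroid&prog in all 4 mice. Median depths before thinning were 6493 to 17622.5 UMIs in erythroid&prog and 11662.5 to 14181.5 in mono&prog, and 2 to 3 shallower cells per mouse were left out in mono&prog and 18 to 58 in erythroid&prog.

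Mono&prog held 3 clusters whose shares differed between the mice. Cluster 5, led by Fn1, F13a1 and Nrg1, made up 40.9% and 44.3% of the class in the vehicle mice and 55.3% and 58.0% in PM 1 and PM 2. Cluster 7, led by Vcan, Fn1, Saa3 and Ccr2, made up 55% and 51.6% against 43.7% and 37.4%, and the small cluster 28, led by Ace, Adgre4 and Clec4a3, 0.972% to 4.53%. Atf3, Nr4a1, Dusp1 and Fos were higher in cluster 7 than in cluster 5 in each mouse. PM 2 had the smallest share of cluster 7, while its class levels of Atf3, Nr4a1 and Dusp1 lay above those of PM 1. Within cluster 5, Nr4a1 had 23.7 and 24.0 CPM in the vehicle mice, 2.84 in PM 1 and 13.6 in PM 2. Within cluster 7 it had 300.4 and 360 CPM against 25.7 and 194. The order of the mice was the same in both clusters, and no member passed in a fit of either cluster alone with all 4 mice, an alternative added after the values were seen. With 1 mouse left out, the log2 fold change of Nr4a1 in cluster 7 was -1.57 without vehicle 2 and -1.81 without vehicle 1. It was -0.81 without PM 1 and -3.64 without PM 2. In cluster 5 the values were -1.69, -1.755, -0.88 and -3.05, in the same order. These fits take a lone mouse to vary as the others do. Markers of other cells also differed in the class, with the neutrophil markers summing to 17420 and 14240 CPM in vehicle 1 and 2, 29440 in PM 1 and 14920 in PM 2, and the HSPC markers to 4848, 4192, 7580 and 7535. The 10 mono&prog markers themselves summed to 7889, 7414, 7699 and 8167 CPM. The part of the cluster shares and of these markers in the member values was not tested.

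**Figure D3:**
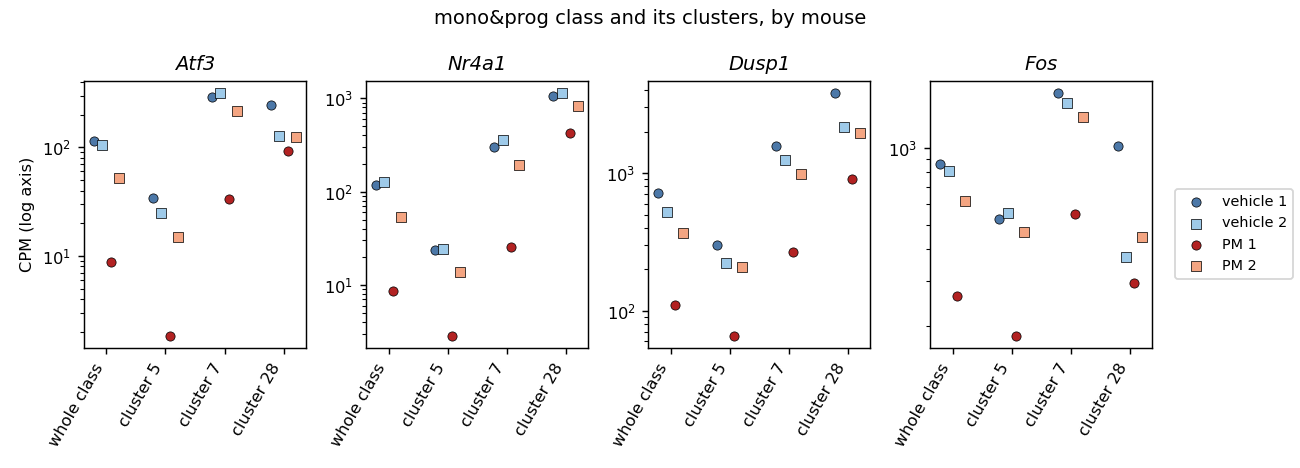
CPM (logarithmic vertical axis) of Atf3, Nr4a1, Dusp1 and Fos in the whole mono&prog class and in its 3 clusters, with 1 point per mouse and no error bars. In clusters 5 and 7 PM 1 (dark red circles) is the lowest mouse for each of the 4 genes, and cluster 7 lies above cluster 5 in every mouse; Nr4a1 in cluster 7 runs from 25.7 CPM in PM 1 to 194 in PM 2 and 300.4 and 360 in the vehicle mice.

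In neutrophils, Jun was higher after PM. In the whole class it had 112.5 and 111.9 CPM under vehicle against 159 and 235 under PM, a log2 fold change of 0.72 (SE 0.16, adjusted p = 0.0351 by edgeR). The call was lost without either vehicle mouse (adjusted p = 0.184 without vehicle 1 and 0.113 without vehicle 2), and without PM 2 the log2 fold change of 0.47 was under the fold set for a call. Divided into stages by marker genes, most neutrophil calls were in immature neutrophils, cells with Camp, Ngp, Ltf and Lcn2, the genes of secondary granules. There, 3 of 9 members tested were called higher, where 6.44% of all genes were called in either direction.

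Fos in immature neutrophils had 32.9 and 27.9 CPM with vehicle and 86.1 and 103 CPM with PM. The groups did not overlap, and PM 1 and PM 2 were close. The log2 fold change was 1.5 (SE 0.12, adjusted p = 6.72e-05 by edgeR). Fosb had 3.12 and 5.79 CPM in the vehicle mice against 14.51 and 13.99 in the PM mice, a log2 fold change of 1.58 (SE 0.25, adjusted p = 0.00457 by edgeR). Both genes passed under each of 12 alternative settings, those without 1 of the mice included. Jun had 118 and 101 CPM against 150.3 and 210.0, a log2 fold change of 0.58 (SE 0.14, adjusted p = 0.0352 by edgeR), and its call was lost without vehicle 1 (0.13), vehicle 2 (0.199) or PM 2 (0.0665). Egr1 had 5.64 and 7.16 CPM against 11.5 and 26.9 and did not pass (log2 fold change 1.43, SE 0.41). Its log2 fold change was 1.88 without PM 1 and 0.79 without PM 2, and that of Nr4a1 without PM 1 was 1.81. With all mice, the 9 members tested were all above 0, with a median of 0.58 and a median of all genes of -0.00035.

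Mature neutrophils, cells with Cxcr2, Il1b and Slpi, had higher levels of Fos, Junb and Dusp1 than the earlier stages in every mouse. In them Jun passed as higher, 1 of 10 members where 7.13% of genes were called. Its level was 129.5 and 176 CPM under vehicle against 254 and 333.5 under PM, a log2 fold change of 0.97 (SE 0.17, adjusted p = 0.0167 by edgeR), with adjusted p of 0.0811 without PM 1 and 0.111 without PM 2. Fos had 275, 605, 618 and 760 CPM in vehicle 1, vehicle 2, PM 1 and PM 2, so that vehicle 2 was near PM 1 and the gene did not pass. In neutrophil precursors, cells with Elane, Mpo and Mki67, 0 of 9 members passed, against 2.78% of genes. Fos there had 29.2 and 27.8 CPM with vehicle and 32.0 and 46.3 with PM. The unadjusted p was under 0.05 for 3 members, with log2 fold changes of 0.59 for Jun, 0.37 for Fos and -0.56 for Dusp1. Dusp1 in mature neutrophils had 1763 and 2292 CPM in the vehicle mice, 1037 in PM 1 and 1928 in PM 2, so that PM 1 was the lowest mouse there too, and it did not pass.

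Depth and markers of other cells were set beside these neutrophil values. Median UMIs per immature neutrophil were 7552 and 7821 under vehicle against 5338 and 5846 under PM. Their secondary granule markers summed to 119600 and 119100 CPM against 107700 and 115800, and the 7 mature neutrophil markers to 1521 and 1485 against 1546 and 1543. The make-up of the stage differed more. It joined cluster 2, led by Orm1, Ltf and Ngp, and cluster 3, led by Mmp8, Acvrl1 and Gpr27. Cluster 3 held 988 of 2121 and 598 of 1559 cells of the stage under vehicle. Under PM it held 1470 of 2797 and 1189 of 2089. The HSPC markers summed to 77.9 and 67.3 CPM against 197 and 141, and the mono&prog markers to 1376 and 1232 against 1672 and 1585. The part of any of these in the Fos and Fosb values was not tested.

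In B cells 3 members, all of them AP-1 genes, were lower after PM. Jun had 225 and 266 CPM with vehicle and 108 and 170.2 with PM, a log2 fold change of -0.85 (SE 0.18, adjusted p = 0.0107 by edgeR). Jund, a Jun gene that is broadly expressed in resting cells, had 1008 and 998 CPM against 469 and 729, a log2 fold change of -0.75 (SE 0.17, adjusted p = 0.0113 by edgeR). Fosb had 30.1 and 29.7 CPM against 14.6 and 17.8, a log2 fold change of -0.90 (SE 0.24, adjusted p = 0.0267 by edgeR). For these 3 the groups did not overlap, with PM 1 lowest. The class joins pro-B and pre-B cells with immature and mature B cells, and their shares differed between the groups. Pro-B and pre-B cells numbered 84 and 495 under vehicle and 177 and 127 under PM. The later stage had 159 and 484 against 1248 and 612. In that stage Jun had 125 and 101 CPM against 77.9 and 115 (log2 fold change -0.23) and did not pass. Pro-B and pre-B cells had more Jun in every mouse. The part of these shares in the class values was not tested. Without PM 1 all 3 calls were lost, with adjusted p of 0.175 for Jun, 0.213 for Jund and 0.328 for Fosb by edgeR. Fosb was also lost without vehicle 2 (0.263) and without PM 2 (0.0536), with called doublets left out (log2 fold change -0.24), and by DESeq2 (log2 fold change -0.90, adjusted p = 0.425).

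By stage, most B cell calls were in the pro-B and pre-B stage, cells with Vpreb1, Igll1 and Rag1, where 5 of 9 members tested were called lower and 10.5% of all genes were called in either direction. Junb had 393 and 223 CPM under vehicle against 88.6 and 93.6 under PM, a log2 fold change of -1.65 (SE 0.23, adjusted p = 8.16e-05 by edgeR). Jund had 1094 and 1048 CPM against 293 and 537, a log2 fold change of -1.33 (SE 0.21, adjusted p = 0.000964 by edgeR). The groups did not overlap for either gene. Jund passed under each of 12 alternative settings, and Junb under 10, its call lost with called doublets left out (adjusted p = 0.101) and with the stress genes kept in the clustering (0.248), while its log2 fold change ran from -2.05 to -1.26 over the 12 settings. Both passed without any 1 of the mice.

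The other 3 calls of this stage were less firm. Fos had 37.5 and 85.3 CPM with vehicle and 25.2 and 34.0 with PM (log2 fold change -1.25, SE 0.29, adjusted p = 0.0075 by edgeR), and Fosb had 8.66 and 38.01 against 13.8 and 9.26 (log2 fold change -1.35, SE 0.43, adjusted p = 0.0458 by edgeR). For Fosb the groups overlapped, since vehicle 1, which had 84 cells of this stage where vehicle 2 had 495, was as low as the PM mice. Without vehicle 2 the log2 fold change of Fosb was 0.49 and that of Fos -0.30, and neither passed. With called doublets left out that of Fos was -0.07 and it did not pass. By DESeq2 neither Fos (log2 fold change -1.11, adjusted p = 0.219) nor Jun (-0.65, adjusted p = 0.107) passed in this stage, and Fosb was given no adjusted p. Jun had 335 and 369.9 CPM against 176 and 265 (log2 fold change -0.65, SE 0.19, adjusted p = 0.0266 by edgeR). Its call was lost without vehicle 1 (0.0903), vehicle 2 (0.208) or PM 1 (0.261), and the Fosb call was lost without PM 2 (0.103).

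In immature and mature B cells, marked by Ighd, Fcer2a and Ms4a1, 1 of 9 members tested passed (1.46% of genes), Ier2, at 263 and 235 CPM under vehicle against 139.9 and 193 under PM. Its log2 fold change was -0.61 (SE 0.16, adjusted p = 0.0309 by edgeR), and the call was lost without vehicle 1 (0.31), vehicle 2 (0.463) or PM 1 (0.679) and by DESeq2 (log2 fold change -0.61, adjusted p = 1.0). Over all 5 stages, 10 of 46 pairs passed, 4 higher and 6 lower. Single stages had 1.46% to 10.5% of all genes called in either direction. Cycling markers in the pro-B and pre-B stage had overlapping ranges, Mki67 at 653 and 774 CPM with vehicle and 650.0 and 877 with PM. Median UMIs per cell of that stage were 2512.5 and 2593 under vehicle against 3486 and 3793 under PM, and its neutrophil markers summed to 37570 and 26580 CPM against 34750 and 27630. Its make-up also depended on the clustering. It held 84 and 495 cells under vehicle and 177 and 127 under PM. With the stress genes kept in the clustering it held 31 and 137 against 111 and 68. A cluster with Vpreb3 and Rag1 among its leading genes, 92 and 562 cells against 382 and 250, then counted as immature and mature B cells. The part of these differences in the calls was not tested.

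**Figure D4:**
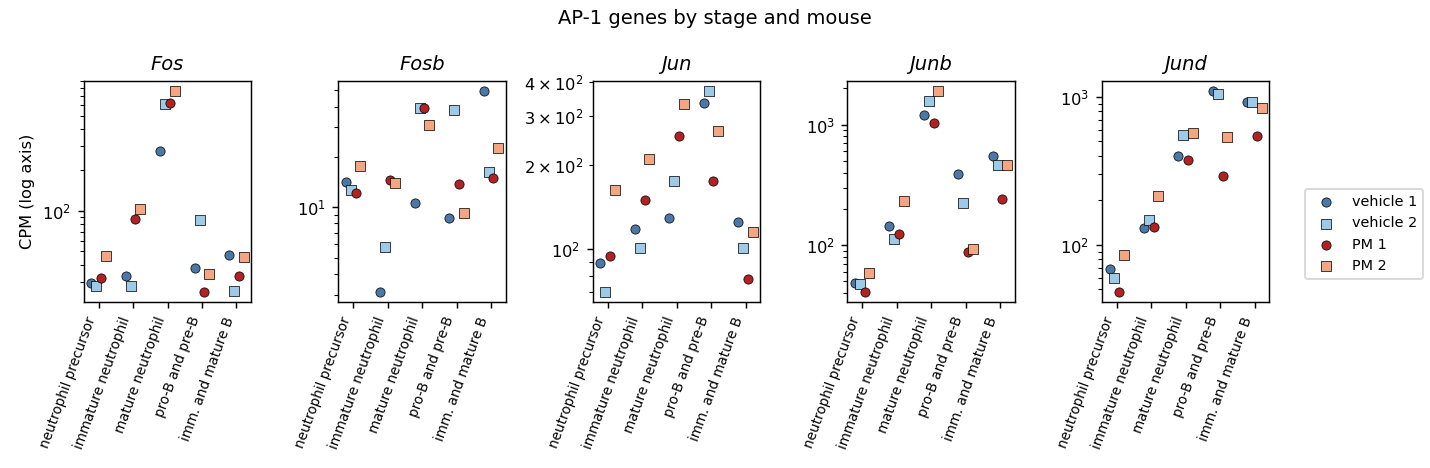
CPM (logarithmic vertical axis, with its own range in each panel) of the 5 AP-1 genes in 3 neutrophil and 2 B cell stages, with 1 point per mouse and no error bars. In immature neutrophils both PM mice (red) lie above both vehicle mice (blue) for Fos, Fosb and Jun, and in pro-B and pre-B cells both lie below for Fos, Jun, Junb and Jund; for Fosb in pro-B and pre-B cells vehicle 1 lies just below both PM mice.

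The remaining pathway genes of these lineages were read from lists chosen by function. In B cells, where 6.38% of all genes were called in either direction, 8 of 27 other immediate early genes were lower and 0 higher (median -0.46, against 0.0047 for all genes), among them Dusp5, a phosphatase of nuclear ERK (log2 fold change -2.21), the RNA-binding protein gene Zfp36 (-0.62) and the kinase gene Sik1 (-0.73). Of the heat shock genes there, 4 of 11 were higher and 0 lower, with the chaperone genes Hsph1 at 0.94, Hspd1 at 0.88 and Hspa8 at 0.51. In pro-B and pre-B cells, where 10.5% of all genes were called, 12 of 24 other immediate early genes were lower and 1 was higher, Myc at 1.86, and 8 of 11 heat shock genes were higher. None of the 9 other AP-1 and dimer partner genes tested in B cells, or of the 8 tested in this stage, passed by edgeR. In immature neutrophils 531 of 10401 genes were higher and 139 lower, and of the other immediate early genes 4 of 25 were higher and 0 lower, with Zfp36l1 at 2.48, Klf10 at 0.77 and Btg2 at 0.58. The dimer partner gene Mafk was lower there (-0.78), the SRF partner gene Elk3 (2.19) and Mef2c (1.89) were higher, and 0 of 12 heat shock genes passed.

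The difference between cell types was tested itself, in 1 model over all types with the mouse as a block, so that a change alike in all cells of a mouse does not enter. The contrast was the PM effect in a type minus the mean PM effect over the 11 types, so the values of the types sum to 0 and are not independent of each other. Each mouse enters with 1 value per type, so the p-values of this test do not rest on separate mice alone. Of 110 pairs of a member and a type, 3 passed by edgeR (0.634% of all pairs). Nr4a1 in mono&prog was at -1.46 on the log2 scale relative to the average (SE 0.36, adjusted p = 0.0479 by edgeR) and Dusp1 at -0.76 (SE 0.17, adjusted p = 0.0189 by edgeR), where 1.13% of genes passed in that type. Fos in erythroid&prog was at 2.09 (SE 0.51, adjusted p = 0.0345 by edgeR), where 1.91% passed. All 3 calls were lost without PM 1 (adjusted p of 1.0 for Nr4a1, 0.6 for Dusp1 and 0.533 for Fos by edgeR) and with called doublets left out (0.188, 0.247 and 0.12). The sign and much of the size of the value stayed where a call was lost: over 11 alternative settings Nr4a1 ran from -1.83 to -1.22, Dusp1 from -0.94 to -0.61 and Fos from 1.75 to 2.24. Among the other mice, leaving out vehicle 1 ended the call of Dusp1 (0.16), vehicle 2 those of Dusp1 (0.0827) and Fos (0.108), and PM 2 those of Nr4a1 (0.519) and Fos (0.222).

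The mono&prog calls were not kept when a cluster stood in for the class, an alternative chosen after the values were seen. With cluster 5 in place of the class, 0.175% of genes passed and neither gene did, with Nr4a1 at -0.99 (adjusted p = 0.647 by edgeR) and Dusp1 at -0.34 (0.797). With cluster 7 in its place, 0.781% passed and neither gene did, with Nr4a1 at -1.16 (0.222) and Dusp1 at -0.59 (0.154). Of the other immediate early genes, Socs3 (-2.01), Nfkbiz (-1.18) and Trib1 (-1.10) were also lower in mono&prog than in the average. In erythroid&prog, where 1.91% of genes passed, 6 of 29 of these genes were higher than the average and 0 lower. Among the 6 were Sik1 (1.835), Zfp36 (1.405) and Zfp36l2 (0.86). Neutrophils had 0 of 10 members called (1.51% of genes), although all 10 lay above the average with a median of 0.65, and 4 of them (Jun, Jund, Fos and Egr1) had an unadjusted p under 0.05.

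Taking the average of its own mouse from each value shows the values behind this contrast. In erythroid&prog 8 of 10 members had both PM mice above both vehicle mice, where 24.2% of all genes did, and in neutrophils 6 of 10, where 21.4% did. In mono&prog 7 of 10 had both PM mice below both vehicle mice, and in HSPC 8 of 10, where 25.2% of genes did so in either type. Nr4a1 in mono&prog lay 2.37 and 2.68 above the average of its mouse in the vehicle mice, 0.53 in PM 1 and 1.32 in PM 2, on the log2 scale. Jun in neutrophils lay at -1.39 and -1.34 in the vehicle mice and at -0.47 and -0.64 in the PM mice. In B cells, Jun, Fosb and Jund, which passed within the type, were at -0.73, -0.70 and -0.36 relative to the average and did not pass. The contrast of neutrophils with B cells, chosen after the values were seen, had 0 of 10 members called (2.52% of genes), with Jun at 1.55 (SE 0.51, adjusted p = 0.141 by edgeR) and Jund at 0.69 (SE 0.24, adjusted p = 0.141 by edgeR), both with an unadjusted p under 0.05, as Fos had.

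**Figure D5:**
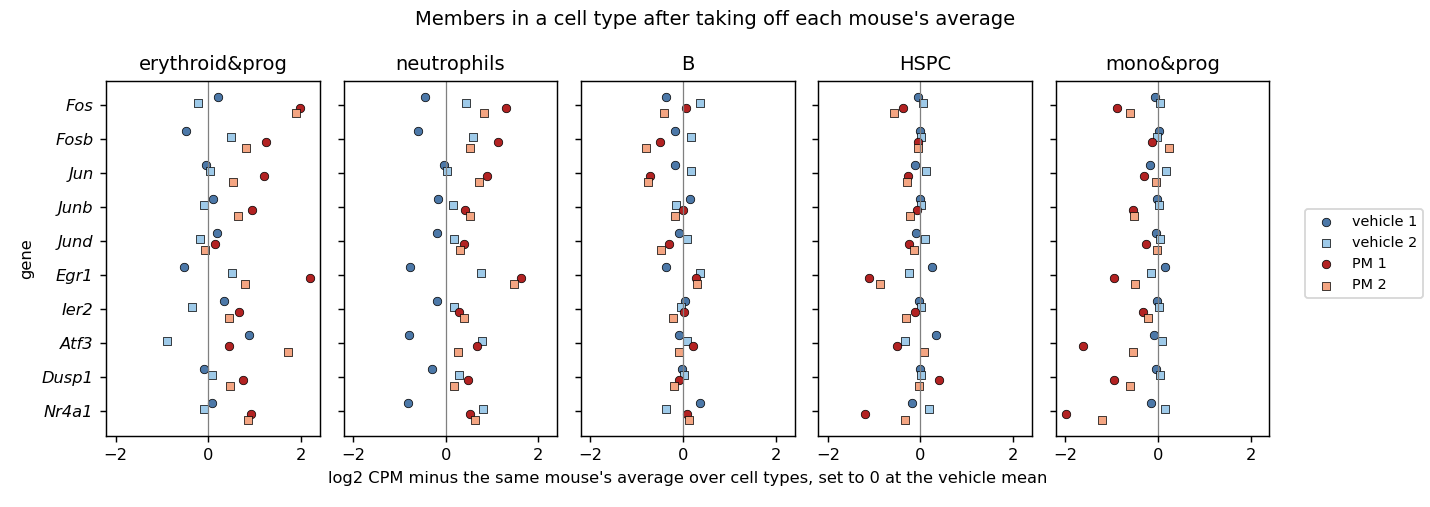
Level of each member in 5 cell types after the average of the same mouse over 11 types was taken off, as log2 CPM set to 0 at the mean of the vehicle mice (horizontal axis), with 1 point per mouse and no error bars. Both PM mice (red) lie to the right of the vehicle mice (blue) for 8 of 10 genes in erythroid&prog and 6 of 10 in neutrophils, and to the left for 7 of 10 in mono&prog and 8 of 10 in HSPC; in mono&prog PM 1 lies further left than PM 2 for Nr4a1 and Atf3.

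The erythroid value of Fos rested on low counts in a class that differed in make-up. Fos there had 10.9 and 7.17 CPM with vehicle and 21.9 and 37.8 with PM, the lowest mean level of any cell type. Within the type alone its log2 fold change was 1.73 (SE 0.35, adjusted p = 0.138 by edgeR), which did not pass, as Jun did not (0.76, SE 0.15, adjusted p = 0.132 by edgeR). The 11 neutrophil markers summed to 28240 and 10070 CPM under vehicle against 35240 and 30410 under PM in these cells, and the erythroid markers to 87930 and 42640 against 23970 and 44040. The lowest neutrophil marker sum and the lowest Fos were both in vehicle 2. The highest sum was in PM 1 and the highest Fos in PM 2. Median UMIs per cell were 17622.5 in PM 1 and 6493 to 6724 in the others. The part of these differences in the Fos value was not tested.

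Plasma cells fell into a clonal cluster, in which Igkv10-96 was the leading light-chain V gene of 98.1% of cells that had one, and another cluster with mixed light chains. The clonal cells, 21 and 27 with vehicle and 92 and 31 with PM, had little Fos, at 32.6 and 14.6 CPM under vehicle against 17.6 and 5.00 under PM. The other plasma cells had 1166 and 877 CPM against 416 and 804. In the clonal cluster 0 of 7 members tested passed (0.643% of genes), with Jun at 20.2 and 8.90 CPM with vehicle and 36.1 and 31.7 with PM (log2 fold change 1.36, SE 0.35, adjusted p = 0.0606 by edgeR), the 1 member with an unadjusted p under 0.05. In the other plasma cells all 8 members tested were below 0, with a median of -0.63, and none passed. Fos of the plasma class as a whole, at 717 and 419 CPM against 135 and 380, sums both clusters.

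Across the 44 values of 11 cell types in 4 mice, with each type set to its own mean, the gene most like the summed members among 6993 genes was Zfp36 (Pearson's r = 0.902), whose product promotes decay of AU-rich messages. Next came Ppp1r15a (0.873), a phosphatase subunit of the stress response, and Nfkbia (0.857), the inhibitor of NF-kB. Ddx5, an RNA helicase gene, followed at 0.833 and Nfkbiz, of the same inhibitor family, at 0.821. The 44 values share 4 libraries, so the correlations are given as a description.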

How the data were processed

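Single-cell 3' RNA-seq of bone marrow was analysed for 4 mice. The authors deposited raw UMI counts per gene and barcode, made with Cell Ranger 6.0.1 and STAR per the submitters' processing notes. The notes name GRCm39 and the study's methods GRCm38, and no coordinate was taken from the count tables. Promoter windows are RefSeq sequences on GRCm38.p6. The members and all lists were chosen with earlier results of these data known.

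A barcode was kept as a cell if it had 300 genes or more and no more than 20% of its UMIs from mitochondrial genes, which left 39743 cells. Doublets were scored per library with Scrublet in scanpy and called at a rate of 0.8% per 1000 barcodes (6.59% to 11.1% of cells), and stayed in the main result. Cells were clustered on variable genes (2500, with the 70 listed members and stress genes kept out, 7 members among the variable genes) with scanpy 1.11.5, using 30 components, 15 neighbours and leidenalg 0.10.2 at resolution 1. This gave 31 clusters, each named where at least 3 markers of a type were raised with a margin of 0.4 over the next type. Raw UMIs were summed per mouse and cell type.

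PM and vehicle, 2 mice each, were compared by edgeR 4.0.16 (quasi-likelihood test, TMM) within 13 types with at least 10 cells per mouse and within 5 stages. The average over 11 types with at least 50 cells per mouse was tested by limma 3.58.1 on log2 CPM with a prior count of 2. The deviation of a type from that average was tested by edgeR with the mouse as a block. Adjusted p-values are Benjamini-Hochberg over all genes of a fit, and a call needed an adjusted p under 0.05 and a log2 fold change beyond 0.5. The p-values within types, within stages, in all cells and of the average rest on separate mice, 2 per group. The deviation test took 1 value per mouse and type, so cell types of the same mouse also enter its p-values. Apart from the members, genes were named if called, at most 3 per list and direction, by the size of their averaged change. The fits were tested on simulated data with known changes. Alternatives were DESeq2 1.42.0, RLE size factors or none, no filter on low counts, a stricter cell filter (500 genes, 10% mitochondrial), doublets left out, stress genes kept in the clustering, other thinning depths, the average without 1 type, each mouse left out, and a replicate block. Versions were R 4.3.3, igraph 0.11.9 and scikit-learn 1.9.0.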

Additional observations from a re-analysis of the deposited data

Results flagged for a closer look

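In 3 cases the PM effect on a member in 1 cell type differed from the mean PM effect over the 11 types by the test of the difference itself. Fos in erythroid&prog was higher relative to the average by 2.09 on the log2 scale (adjusted p = 0.0345 by edgeR). In mono&prog, Nr4a1 was at -1.46 (adjusted p = 0.0479 by edgeR) and Dusp1 at -0.76 (adjusted p = 0.0189 by edgeR) relative to the average. Each of the 3 lost its call without PM 1 and with called doublets left out, while the values kept their sign over 11 alternative settings, at 1.75 to 2.24 for Fos, -1.83 to -1.22 for Nr4a1 and -0.94 to -0.61 for Dusp1. Groups of 2 mice are too small for a check of single outlying samples.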

How the results depend on the processing

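Counts of called pairs of a member and a class, 4 within types, 10 within stages and 3 as deviations, changed with the processing. Without a filter on low counts they were 21, 17 and 25. With called doublets left out, 6 stage pairs and 0 deviations passed. By DESeq2, Fosb in B cells, Fos and Jun in pro-B and pre-B cells and Ier2 in immature and mature B cells did not pass. As deviations, 5 passed by limma-voom and 5 with the stress genes kept in the clustering. Leaving out 1 mouse gave 4 to 36 within types, 7 to 16 within stages, 0 to 5 as deviations, 0 to 6 in the average and 0 in all cells, with the highest count without PM 2 within types, within stages and in the average, and without vehicle 2 as deviations. These fits take a lone mouse to vary as the others do, and the cause of the changes was not tested.

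Without PM 1 the averaged log2 fold change turned positive for 6 members. Over the fits without 1 mouse it ran from -0.43 without PM 2 to 0.21 without PM 1 for Jun, from -0.47 to 0.06 for Fosb, from -0.78 to 0.005 for Jund, from -0.55 to 0.091 for Ier2, from -0.78 to 0.074 for Fos and from -0.80 to 0.30 for Egr1. Fosb in pro-B and pre-B cells ran from -1.70 without PM 1 to 0.49 without vehicle 2. Deviation calls also fell short with RLE size factors and without a composition factor for Nr4a1 (adjusted p of 0.054 and 0.074) and by limma-voom for Fos in erythroid&prog (0.171). For the member values compared across settings, 375 kept direction and call, 51 lost the call, 6 gained it and 7 changed sign. These counts do not cover every pair that failed to pass with the main settings. Calls gained by such pairs are therefore not all among the 6. Of 50 shares of cells with a UMI, 41 stayed within the spread of the mice when thinned to 2000 UMIs.

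The labels number the mice 1 and 2 in both groups. Deviations from the group means of mice with the same number had a correlation of -0.078 over 10039 genes, so with 2 pairs the numbers were not taken to pair the mice. With the replicate number as a block, 10 pairs passed within types, 14 within stages, 0 in the average and 0 in all cells, and Jun in immature neutrophils did not pass (adjusted p = 0.094 by edgeR).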
